A study of Homo sapiens with 9 samples.

Results

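The 34 genes described here encode carriers that move amino acids across the plasma membrane or out of the lysosome, with 2 relatives for taurine and creatine. They were chosen by name among the 58735 genes counted by bulk RNA sequencing in FaDu, a long-established human cell line from a squamous carcinoma of the hypopharynx. Of the 34, 33 were found under their own symbol and SLC66A1 under its older symbol PQLC2. Per the labels, 9 cultures made 3 groups of 3 biological replicates. Libraries labelled KD_OE came from cells that carried an AMIGO2 knockdown together with overexpressed CAPN2, libraries labelled KD_NC from cells with the AMIGO2 knockdown alone, and libraries labelled NC_NC from wild-type control cells. All 3 groups were untreated cells in minimum essential medium with fetal bovine serum. How AMIGO2 was knocked down and CAPN2 overexpressed, with which vectors and in how many clones, is not given in the sources.

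Cells take up amino acids through carriers that are grouped into transport systems by substrate and by the ions that drive them. Sodium-coupled carriers of the SLC1, SLC6 and SLC38 families load the cell with glutamate, glycine, alanine, serine and glutamine. Heteromeric exchangers, made of an SLC7 light chain held by the heavy chain SLC3A2 (CD98), trade part of that pool for leucine and other large neutral amino acids or for cystine. Lysosomal carriers return the products of protein breakdown to the cytosol, and SLC38A9 among them passes the arginine signal to the kinase complex mTORC1. The light chain SLC7A5 and the glutamine carrier SLC1A5 are known for high levels in squamous carcinomas. Several of these genes, among them SLC7A11, SLC7A5, SLC3A2, SLC1A4, SLC38A2, SLC6A9 and SLC7A1, are known targets of ATF4, the transcription factor of the response to amino acid shortage.

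The libraries held between 15158607 and 19737562 counts, and 16812 genes had enough counts to be tested. The labelled knockdown was not seen in the counts of its target: AMIGO2 averaged 39.0 ± 3.79 CPM (counts scaled to library size) in the libraries labelled KD_OE, 27.7 ± 3.41 CPM in those labelled KD_NC and 27.6 ± 1.73 CPM in those labelled NC_NC (SD, n = 3 each). In edgeR's quasi-likelihood test AMIGO2 did not pass between KD_NC and NC_NC (log2 fold change 0.01, adjusted p = 0.971), and it was higher in KD_OE than in KD_NC (0.49 ± 0.114 SE, adjusted p = 0.0014). CAPN2 averaged 499 ± 1.29 CPM in the libraries labelled KD_OE, 418 ± 20.3 CPM in those labelled KD_NC and 462 ± 13.9 CPM in those labelled NC_NC. It was higher in KD_OE than in KD_NC (log2 fold change 0.26 ± 0.079 SE, edgeR adjusted p = 0.012), and did not pass against NC_NC (0.11, adjusted p = 0.254). Every direction given below is therefore one between libraries with these labels. The 6 squamous epithelial markers were all detected, with summed levels of 2672 to 2909 CPM in the libraries labelled KD_OE, 2078 to 2421 CPM in those labelled KD_NC and 5450 to 5744 CPM in those labelled NC_NC. KRT5 was the largest part of each sum, and the 6 genes did not all move together. Between KD_OE and KD_NC 3 were higher and 3 lower. Against NC_NC 4 were lower and 1 higher, both in KD_OE (median log2 fold change -0.93) and in KD_NC (median -0.73). In KD_OE against NC_NC, KRT14 (log2 fold change -2.24), KRT6A (-1.61), KRT5 (-1.46, edgeR adjusted p = 1.16e-09) and EPCAM (-0.40) were lower. CDH1 was higher there (0.69, adjusted p = 6.47e-07) and TP63 did not pass (0.07, adjusted p = 0.51). The 3 blood and immune markers summed to at most 0.203 CPM in any library. The 3 endothelial markers summed to at most 6.42 CPM and the 3 fibroblast markers to at most 15.6 CPM. The part of these marker differences in the results below was not tested.

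Of the 34 transporter genes, 29 passed the filter on low counts. Between the libraries labelled KD_OE and KD_NC, 16 of the 29 were higher and 3 were lower at an adjusted p under 0.05, against a background of 23.7% of all tested genes higher and 25.6% lower. Between KD_OE and NC_NC, 17 were higher and 4 lower, against a background of 27.9% higher and 28.4% lower. Between KD_NC and NC_NC, 2 were higher and 14 lower, against a background of 16.0% higher and 18.5% lower. The median log2 fold change of the 29 was 0.57 in the first comparison (0.01 over all tested genes), 0.40 in the second (0.02 over all) and -0.38 in the third (-0.01 over all). The filter, the choice of genes and the sharing of each group by 2 of the 3 comparisons bear on these counts, which are given as a description. Leaving out KD_NC replicate 1, KD_NC replicate 3 or KD_OE replicate 1 raised the 2 higher genes of the third comparison to 4, and leaving out KD_OE replicate 2 gave 1 lower gene in the first in place of 3.

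Transcripts of the 34 genes together took 0.723 to 0.735% of all counts in the libraries labelled KD_OE, 0.365 to 0.416% in those labelled KD_NC and 0.459 to 0.468% in those labelled NC_NC. The ranges of the 3 groups did not overlap. In bulk RNA a change in RNA per cell and a change in the share of cells that carry it cannot be told apart.

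**Figure D1:**
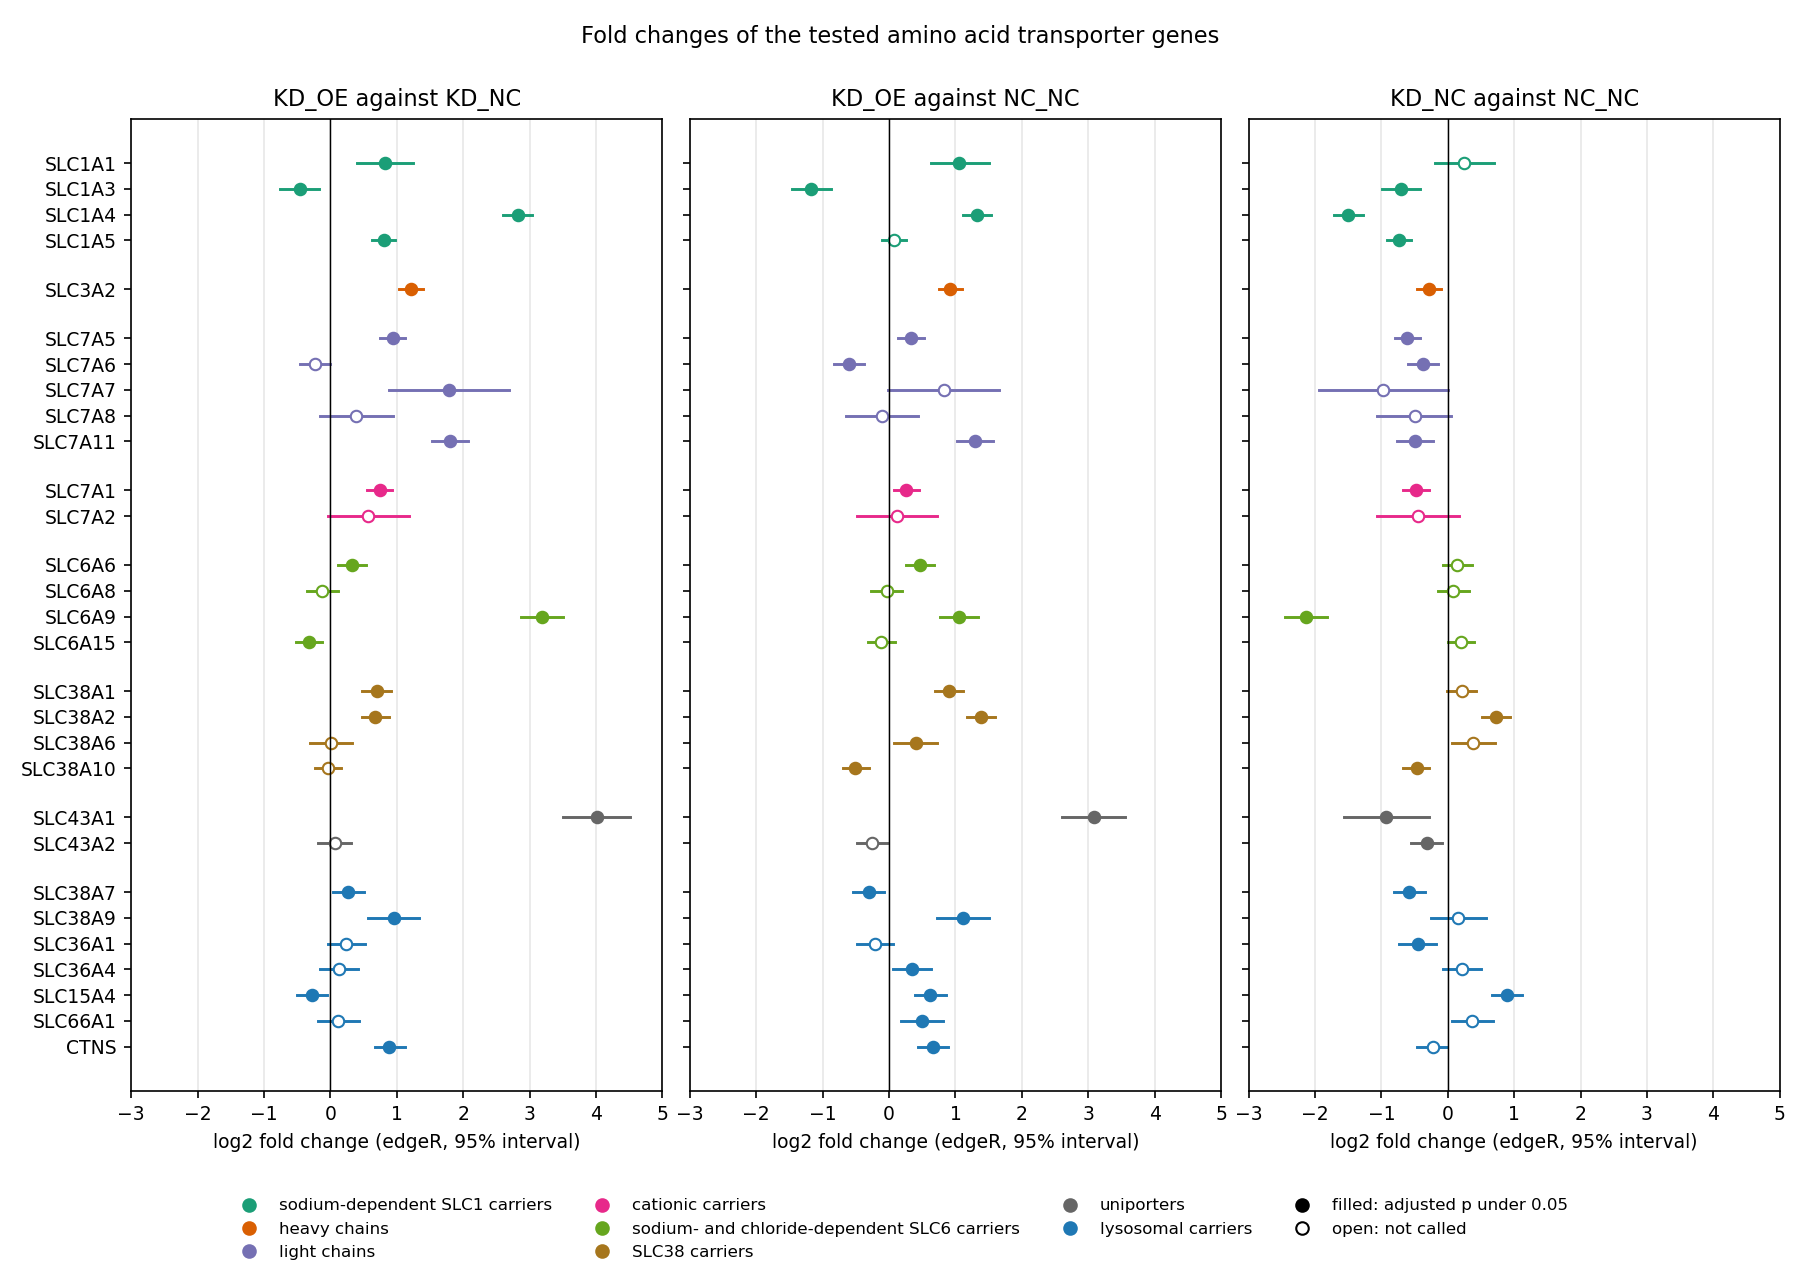
Log2 fold changes (x axis) of the 29 tested transporter genes (y axis, ordered and coloured by transport system) in the 3 comparisons, with 95% intervals from edgeR; filled points passed an adjusted p of 0.05. In the left panel 16 filled points lie right of 0 and 3 left of it, and in the right panel 2 lie right and 14 left.

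Levels are compared between genes per kilobase of gene length. SLC7A5, the leucine-importing light chain, stood highest at a mean of 374 RPKM (CPM per kilobase) over the 9 libraries, 41.2% of the RPKM summed over the 34 genes. Its heavy chain SLC3A2 followed at 126 RPKM, then the glutamine and alanine carrier SLC38A2 at 96.3 RPKM, the arginine carrier SLC7A1 at 76.0 RPKM, SLC38A1 at 52.2 RPKM and SLC1A5 at 50.9 RPKM. SLC7A5 did not overlap SLC3A2 in any group. Neighbours in this order changed places with the label. SLC38A2 lay above SLC7A1, and SLC38A1 above SLC1A5, in the libraries labelled KD_OE and KD_NC, and both lay below those neighbours in the libraries labelled NC_NC. SLC3A2 and SLC38A2 overlapped among the libraries labelled KD_NC, as did SLC7A1 and SLC38A1. SLC7A11, the cystine-importing light chain (21.1 RPKM over all libraries), stood above SLC38A10 (21.5 RPKM) in the libraries labelled KD_OE and below it in the KD_NC and libraries labelled NC_NC. The glycine carrier SLC6A9 (8.34 RPKM) lay above SLC15A4 (7.24 RPKM) in KD_OE and NC_NC and below it in KD_NC. From SLC15A4 down to SLC38A7 (6.36 RPKM) 7 genes followed each other, and no neighbours among them kept 1 order in all 3 groups. The lowest tested gene was SLC7A7 at 0.177 RPKM. The 5 untested genes had 63 counts (SLC16A10), 29 (SLC38A5), 13 (SLC3A1), 5 (SLC6A14) and 2 (SLC1A2) over all 9 libraries, where 3 counts in a library correspond to between 0.149 and 0.203 CPM.

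**Figure D2:**
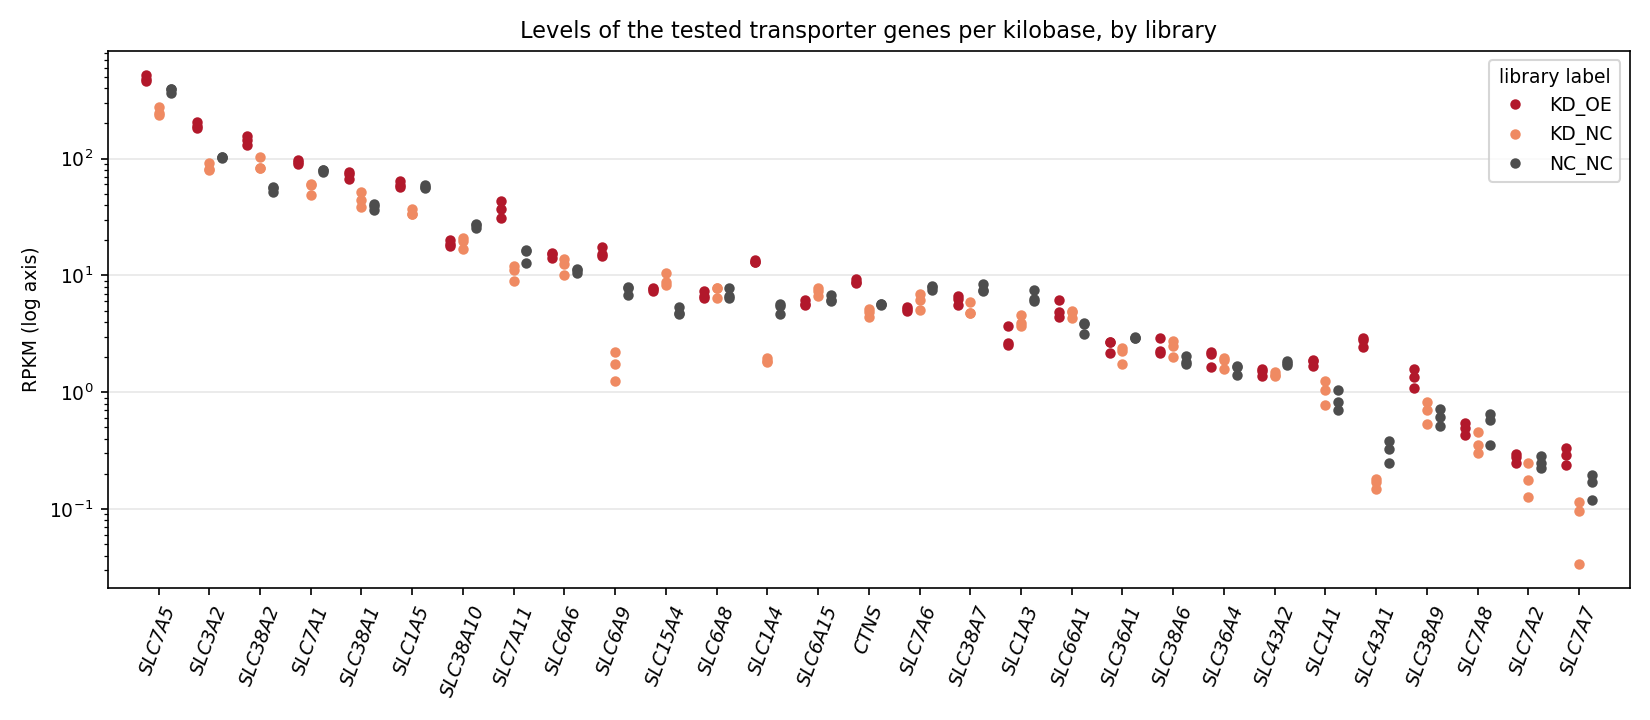
RPKM on a log axis (y) of the 29 tested transporter genes (x, in order of mean level), 1 point per library, coloured by label. SLC7A5 leads at a mean of 374 RPKM and SLC7A7 closes the row at 0.177 RPKM, and the 3 labels separate most widely at SLC1A4, SLC6A9 and SLC43A1.

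Because ATF4 is a known regulator of several of these genes, their promoters were searched for the core of the C/EBP-ATF response element to which it binds with a partner, spelled TGATGNAA, on both strands (TTNCATCA on the other). RefSeq promoter windows on GRCh38.p14, from 250 bases before to 50 bases after an annotated start, were available for 28 of the 34 genes, with 50 windows in all. The letters stood in 6 of the 50 windows (12%), against 1270 of 35116 windows of all genes (3.62%), and in 6 of the 28 genes (21.4%), against 1217 of 27305 genes (4.46%). Of the ATF4 targets named above, SLC7A5, SLC38A2 and SLC6A9 had a window without a match, and SLC7A11 had no window to search. A match describes the letters and is neither a binding site nor a cause. The 6 matches follow, read 5′ to 3′ along the gene, with the matching letters in capitals, so that the shared core can be seen beside the flanks that differ.
SLC1A3: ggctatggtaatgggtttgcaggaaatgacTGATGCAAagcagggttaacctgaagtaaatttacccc
SLC1A4: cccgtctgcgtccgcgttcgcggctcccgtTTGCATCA
SLC1A5: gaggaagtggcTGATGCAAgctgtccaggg
SLC3A2: ctgaagtaatgtgcaggactccTTACATCA
SLC7A1: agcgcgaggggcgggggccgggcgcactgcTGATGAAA
SLC38A1: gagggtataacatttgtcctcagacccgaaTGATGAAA

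The SLC1A3 stretch lies at chr5:36596338-36596405 on the plus strand, with its match starting 220 bases before a RefSeq start (position -220), outside any gene annotated by GENCODE. That of SLC1A4 lies at chr2:64989362-64989399 on the plus strand within the gene and outside its exons, with the reverse-strand match at -7. That of SLC1A5 lies at chr19:46784893-46784922 on the minus strand, with 13 of 30 bases in annotated exons and the match at -97. For SLC3A2, chr11:62881714-62881743 on the plus strand is exonic over all 30 bases, and the reverse-strand match starts at 38 after the start. For SLC7A1, chr13:29595674-29595711 on the minus strand holds 15 exonic bases of 38 and the match at 8. For SLC38A1, chr12:46266513-46266550 on the minus strand lies within the gene and outside its exons, with the match at -4. Each position counts from the RefSeq start of the matching window, which need not be the first start of the gene. All of these genes but SLC7A1 also had a window at another start without a match. SLC1A3, SLC1A4 and SLC1A5 carried a TGATGCAA core in one or the other orientation, and SLC7A1 and SLC38A1 a TGATGAAA core. The values of the 6 genes are given below. In KD_OE against KD_NC the log2 fold change was 2.82 for SLC1A4, 1.21 for SLC3A2, 0.80 for SLC1A5, 0.74 for SLC7A1 and 0.70 for SLC38A1, all called higher. SLC1A3, with the same core as SLC1A4, was lower by 0.46 on the log2 scale. Whether the letters bear on these values was not tested.

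Among the sodium-dependent SLC1 carriers, SLC1A4, which exchanges alanine, serine and cysteine, differed most. It measured 89.8, 90.2 and 94.5 CPM in the libraries labelled KD_OE, 12.5, 13.5 and 12.8 CPM in those labelled KD_NC and 32.3, 38.0 and 39.6 CPM in those labelled NC_NC. All 3 groups were apart, with KD_NC lowest and KD_OE highest. In edgeR SLC1A4 was higher in KD_OE than in KD_NC (log2 fold change 2.82 ± 0.106 SE, adjusted p = 5.32e-13) and than in NC_NC (1.32 ± 0.098, adjusted p = 1.93e-09), and lower in KD_NC than in NC_NC (-1.50 ± 0.106, adjusted p = 5.05e-09). Leaving out any 1 library kept the first between 2.79 and 2.83.

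SLC1A3, a glutamate and aspartate carrier best known from astrocytes, ran the other way in KD_OE. Its levels were 23.1, 15.8 and 16.6 CPM in the libraries labelled KD_OE, 24.7, 28.6 and 23.1 CPM in those labelled KD_NC and 47.2, 39.7 and 38.0 CPM in those labelled NC_NC. The libraries labelled NC_NC lay above both other groups, while KD_OE replicate 1 reached the lowest KD_NC library. SLC1A3 was lower in KD_OE than in NC_NC (log2 fold change -1.17 ± 0.140 SE, edgeR adjusted p = 9.23e-07), in KD_OE than in KD_NC (-0.46 ± 0.141, adjusted p = 0.0107) and in KD_NC than in NC_NC (-0.71 ± 0.137, adjusted p = 0.000568). The difference between KD_OE and KD_NC was no longer called without KD_OE replicate 2 (-0.36, adjusted p = 0.0718).

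SLC1A5, the main glutamine exchanger of many tumour lines, averaged 201 ± 11.9 CPM in the libraries labelled KD_OE, 116 ± 6.70 CPM in those labelled KD_NC and 191 ± 5.54 CPM in those labelled NC_NC (SD, n = 3 each). It was higher in KD_OE than in KD_NC (log2 fold change 0.80 ± 0.084 SE, edgeR adjusted p = 3.1e-07) and lower in KD_NC than in NC_NC (-0.73 ± 0.084, adjusted p = 2.83e-06). Between KD_OE and NC_NC it did not pass (0.07, 95% interval -0.10 to 0.25), although a correction for GC content and length gave 0.41 (edgeR adjusted p = 1.26e-05). SLC1A1, which takes up glutamate and cysteine, averaged 7.21 ± 0.484 CPM in libraries labelled KD_OE, 4.07 ± 0.948 CPM in libraries labelled KD_NC and 3.44 ± 0.687 CPM in libraries labelled NC_NC. SLC1A1 was higher in KD_OE than in KD_NC (0.82 ± 0.201, adjusted p = 0.00232) and than in NC_NC (1.06 ± 0.207, adjusted p = 0.000228). Of the 4 tested SLC1 genes, 3 were thus higher and 1 lower between KD_OE and KD_NC, 2 higher and 1 lower between KD_OE and NC_NC, and 3 lower between KD_NC and NC_NC.

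The heavy chain SLC3A2 carries the light chains to the plasma membrane. It measured 951, 980 and 1071 CPM in the libraries labelled KD_OE, 421, 412 and 470 CPM in those labelled KD_NC and 519, 533 and 530 CPM in those labelled NC_NC. The 3 groups did not overlap. SLC3A2 was higher in KD_OE than in KD_NC (log2 fold change 1.21 ± 0.086 SE, edgeR adjusted p = 1.94e-09) and than in NC_NC (0.92 ± 0.086, adjusted p = 3.26e-08). Its lower level in KD_NC than in NC_NC was small (-0.28 ± 0.085, adjusted p = 0.015) and was lost in 5 alternatives: with a correction for GC content and length (-0.09, adjusted p = 0.325), in a fit to those groups alone, and without KD_NC replicate 2 (adjusted p = 0.0732), NC_NC replicate 2 (adjusted p = 0.0582) or NC_NC replicate 3 (adjusted p = 0.059). The other heavy chain, SLC3A1, serves cystine uptake in kidney and gut, had 13 counts in all, and shares 1923 exonic bases with the more abundant PREPL on the other strand.

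Of the 5 light chains, SLC7A5 was by far the most abundant. It measured 2176, 2261 and 2455 CPM in the libraries labelled KD_OE, 1305, 1162 and 1128 CPM in those labelled KD_NC and 1734, 1885 and 1866 CPM in those labelled NC_NC. Again no groups overlapped. The log2 fold change was 0.94 ± 0.089 SE between KD_OE and KD_NC (edgeR adjusted p = 8.67e-08), 0.33 ± 0.089 between KD_OE and NC_NC (adjusted p = 0.0038) and -0.61 ± 0.089 between KD_NC and NC_NC (adjusted p = 3.64e-05). Corrected for GC content and length, the last 2 were 0.61 and -0.37 and stayed called. Copies that could share reads were small: SLC7A5P1 held 350 counts against 266598.

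SLC7A11, the light chain that imports cystine in exchange for glutamate and so feeds glutathione synthesis, measured 422, 356 and 302 CPM in the libraries labelled KD_OE, 108, 115 and 86.4 CPM in those labelled KD_NC and 159, 124 and 156 CPM in those labelled NC_NC. libraries labelled KD_OE lay well above the others, and the libraries labelled KD_NC lay just below those labelled NC_NC. SLC7A11 was higher in KD_OE than in KD_NC (log2 fold change 1.80 ± 0.130 SE, edgeR adjusted p = 2.85e-09) and than in NC_NC (1.30 ± 0.128, adjusted p = 8.66e-08), and lower in KD_NC than in NC_NC (-0.50 ± 0.128, adjusted p = 0.00511). Corrected for GC content and length, the second was 0.73 and the third -0.79, both still called. The gene is AT-rich, with 35.4% GC in its longest transcript.

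The other light chains differed less. SLC7A6, which exchanges arginine for glutamine, averaged 39.2 ± 1.60 CPM in the libraries labelled KD_OE, 46.0 ± 7.15 CPM in those labelled KD_NC and 59.8 ± 2.37 CPM in those labelled NC_NC (SD, n = 3 each). It was lower in KD_OE than in NC_NC (log2 fold change -0.61 ± 0.109 SE, edgeR adjusted p = 9.75e-05) and in KD_NC than in NC_NC (-0.38 ± 0.108, adjusted p = 0.0103), and shares 3371 exonic bases with SLC7A6OS on the other strand, which had 20.1% of its counts. SLC7A7, its relative of kidney and gut, was near the limit of detection with 20, 25 and 28 counts in libraries labelled KD_OE, 3, 10 and 10 in libraries labelled KD_NC and 13, 17 and 10 in libraries labelled NC_NC. SLC7A7 was higher in KD_OE than in KD_NC (1.79 ± 0.433, adjusted p = 0.00206), the one comparison in which this fit called it. SLC7A8, a second carrier of neutral amino acids in system L, averaged 2.93 ± 0.328, 2.22 ± 0.472 and 3.15 ± 0.933 CPM in the libraries labelled KD_OE, KD_NC and NC_NC and passed in none, with a 95% interval of -0.16 to 0.95 between KD_OE and KD_NC.

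Per kilobase SLC7A5, and with it the sum of the 5 light chains, exceeded the heavy chain SLC3A2 in every library. SLC7A6, SLC7A7, SLC7A8 and SLC7A11 each lay below SLC3A2 in every library. The ratio of SLC7A5 to SLC3A2 was 2.50 ± 0.0109 in the libraries labelled KD_OE, 3.03 ± 0.384 in those labelled KD_NC and 3.78 ± 0.119 in those labelled NC_NC (SD, n = 3 each). For the sum of the 5 light chains over SLC3A2 it was 2.73 ± 0.0430, 3.23 ± 0.422 and 4.01 ± 0.106 in KD_OE, KD_NC and NC_NC. The groups did not overlap for the ratio of SLC7A5, and KD_NC was the most spread, from 2.62 to 3.38. SLC7A11 made up 8.61, 7.11 and 5.65% of the light-chain RPKM in the libraries labelled KD_OE, 3.83, 4.51 and 3.55% in the libraries labelled KD_NC and 4.21, 3.07 and 3.87% in the libraries labelled NC_NC. Its share was highest in KD_OE and overlapped between KD_NC and NC_NC. These ratios compare transcripts and were not tested.

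**Figure D3:**
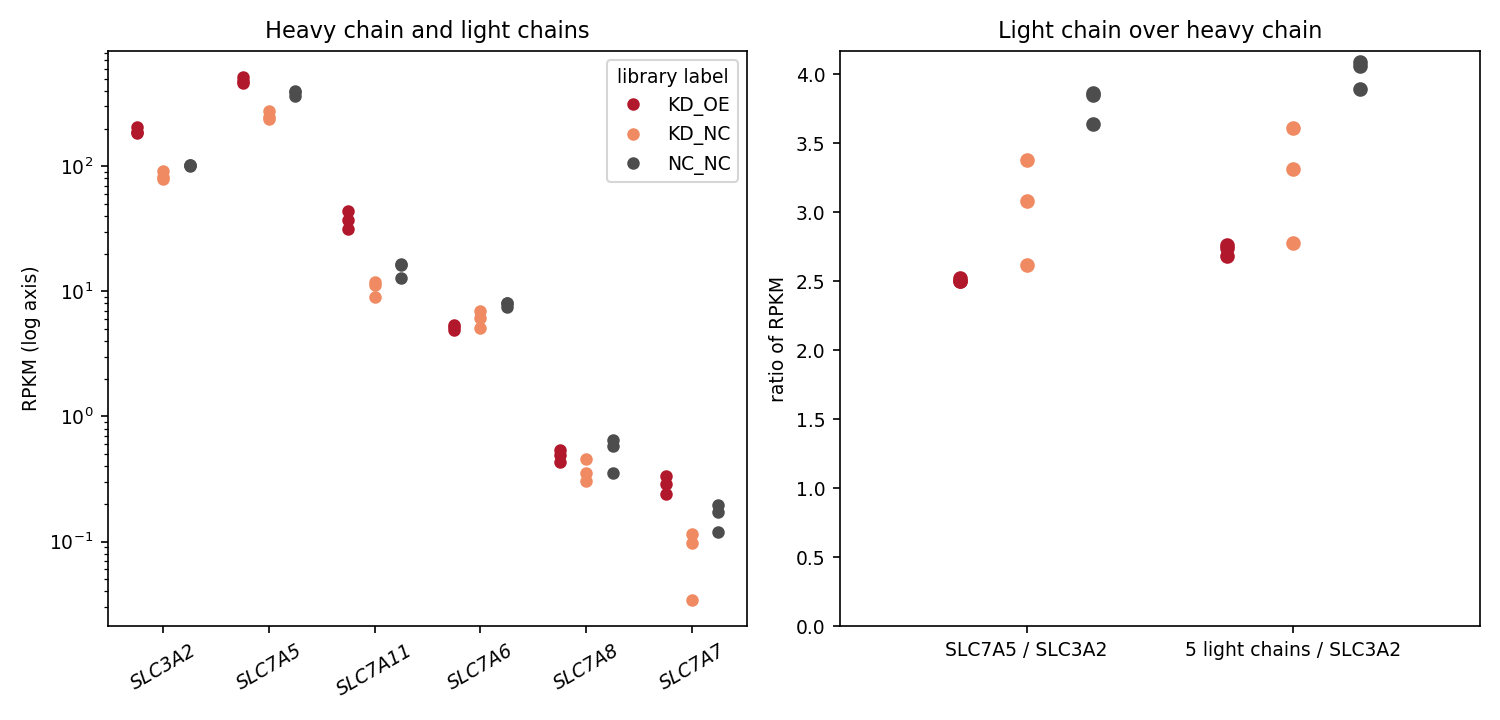
Left, RPKM on a log axis of the heavy chain SLC3A2 and the 5 light chains, 1 point per library and coloured by label. Right, RPKM of SLC7A5, or of all 5 light chains, divided by that of SLC3A2 in the same library; for SLC7A5 the ratio averages 2.50 in KD_OE, 3.03 in KD_NC and 3.78 in NC_NC.

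The cationic carriers take up arginine and lysine. SLC7A1, the general one, measured 698, 742 and 721 CPM in the libraries labelled KD_OE, 460, 462 and 374 CPM in those labelled KD_NC and 585, 612 and 609 CPM in those labelled NC_NC. The groups stood apart, with KD_NC lowest. SLC7A1 was higher in KD_OE than in KD_NC (log2 fold change 0.74 ± 0.091 SE, edgeR adjusted p = 1.99e-06) and lower in KD_NC than in NC_NC (-0.48 ± 0.090, adjusted p = 0.000445). Its higher level in KD_OE than in NC_NC (0.26 ± 0.090, adjusted p = 0.0197) was lost without KD_OE replicate 2 (adjusted p = 0.0859), KD_OE replicate 3 (adjusted p = 0.0509) or any 1 NC_NC library (adjusted p between 0.0551 and 0.0903). SLC7A2, the inducible relative, averaged 2.16 ± 0.195 CPM in libraries labelled KD_OE, 1.46 ± 0.495 CPM in libraries labelled KD_NC and 1.99 ± 0.233 CPM in libraries labelled NC_NC and passed in none of the 3 comparisons.

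Among the sodium- and chloride-dependent SLC6 carriers the glycine carrier SLC6A9 stood out. It measured 75.2, 78.3 and 89.9 CPM in the libraries labelled KD_OE, 11.4, 6.47 and 8.96 CPM in those labelled KD_NC and 35.4, 41.4 and 40.2 CPM in those labelled NC_NC. The 3 groups were far apart. The log2 fold change of SLC6A9 was 3.19 ± 0.152 SE between KD_OE and KD_NC (edgeR adjusted p = 1.02e-11), 1.05 ± 0.135 between KD_OE and NC_NC (adjusted p = 1.97e-06) and -2.13 ± 0.151 between KD_NC and NC_NC (adjusted p = 5.05e-09). Its exons share 404 bases with CCDC24 on the other strand, and reads there cannot be told apart with a kit that does not mark strand. CCDC24 itself lay between 10.0 and 14.9 CPM in libraries labelled KD_OE, 9.14 and 12.2 CPM in libraries labelled KD_NC and 14.7 and 16.6 CPM in libraries labelled NC_NC, a narrower spread than that of SLC6A9.

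SLC6A6, which takes up taurine, averaged 124 ± 5.98 CPM in the libraries labelled KD_OE, 99.5 ± 15.1 CPM in those labelled KD_NC and 90.2 ± 3.35 CPM in those labelled NC_NC (SD, n = 3 each). It was higher in KD_OE than in NC_NC (log2 fold change 0.46 ± 0.102 SE, edgeR adjusted p = 0.000781) and than in KD_NC (0.32 ± 0.102, adjusted p = 0.014), the second lost without KD_NC replicate 3 (adjusted p = 0.0663) or KD_OE replicate 2 (adjusted p = 0.0638). SLC6A15, a carrier of branched-chain amino acids and proline best known from neurons, averaged 51.2 ± 3.05 CPM in libraries labelled KD_OE, 63.8 ± 4.83 CPM in libraries labelled KD_NC and 55.5 ± 3.39 CPM in libraries labelled NC_NC. It was lower in KD_OE than in KD_NC (-0.32 ± 0.096, adjusted p = 0.00987). Between KD_OE and NC_NC it did not pass (-0.12, adjusted p = 0.319), although the correction for GC content and length gave -0.54 (edgeR adjusted p = 2.22e-06). The creatine carrier SLC6A8 averaged 37.3 ± 2.67 CPM in libraries labelled KD_OE, 40.6 ± 4.75 CPM in libraries labelled KD_NC and 38.2 ± 4.01 CPM in libraries labelled NC_NC. It passed in none, with a 95% interval of -0.35 to 0.12 between KD_OE and KD_NC. With the same correction SLC6A8 passed in KD_NC against NC_NC (0.34, edgeR adjusted p = 0.0021) and in KD_OE against NC_NC (0.23, adjusted p = 0.0185). Its pseudogene copy SLC6A10P had 11.1% of its counts, so its reads may be split. SLC6A14, a concentrating carrier of neutral and cationic amino acids, had 5 counts in all.

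SLC38A2, a system A carrier of glutamine, alanine and serine, was, with the lysosomal SLC15A4, one of the 2 genes that were higher in KD_NC than in NC_NC. Its levels were 1033, 951 and 866 CPM in the libraries labelled KD_OE, 548, 685 and 553 CPM in those labelled KD_NC and 369, 339 and 379 CPM in those labelled NC_NC. No groups overlapped, and NC_NC was lowest. In edgeR SLC38A2 was higher in KD_OE than in KD_NC (log2 fold change 0.67 ± 0.100 SE, adjusted p = 1.71e-05) and than in NC_NC (1.39 ± 0.101, adjusted p = 1.49e-09), and higher in KD_NC than in NC_NC (0.72 ± 0.100, adjusted p = 2.3e-05). Corrected for GC content and length, the last was 0.48 and stayed called.

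SLC38A1, its neighbour on chromosome 12 and a glutamine carrier of the same system, measured 775, 745 and 669 CPM in the libraries labelled KD_OE, 439, 521 and 389 CPM in those labelled KD_NC and 411, 366 and 392 CPM in those labelled NC_NC. KD_OE stood above both other groups, which overlapped. SLC38A1 was higher in KD_OE than in KD_NC (log2 fold change 0.70 ± 0.102 SE, edgeR adjusted p = 1.5e-05) and than in NC_NC (0.90 ± 0.102, adjusted p = 4.38e-07), and did not pass between KD_NC and NC_NC (0.21, adjusted p = 0.124). The second was 0.60, still called, once corrected for GC content and length. On GRCh38 SLC38A1 and SLC38A2 lie 806 and 703 kb from AMIGO2, the gene named in the knockdown label.

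SLC38A10, a less studied member of the family, averaged 145 ± 8.45 CPM in the libraries labelled KD_OE, 148 ± 16.2 CPM in those labelled KD_NC and 206 ± 9.23 CPM in those labelled NC_NC (SD, n = 3 each). It was lower than NC_NC in KD_OE (log2 fold change -0.51 ± 0.092 SE, edgeR adjusted p = 0.000115) and in KD_NC (-0.47 ± 0.092, adjusted p = 0.000581), and -0.29 and -0.19 with the correction for GC content and length. Between KD_OE and KD_NC it did not pass (95% interval -0.23 to 0.16). SLC38A6 averaged 12.6 ± 2.11 CPM in libraries labelled KD_OE, 12.5 ± 1.93 CPM in libraries labelled KD_NC and 9.59 ± 0.786 CPM in libraries labelled NC_NC. A higher level in KD_OE than in NC_NC (0.40 ± 0.155, adjusted p = 0.0356) was a call lost in 6 of the 15 alternatives. These were leaving out KD_OE replicate 1 (adjusted p = 0.218), NC_NC replicate 1 (adjusted p = 0.128) or NC_NC replicate 2 (adjusted p = 0.1), the correction for GC content and length (0.22, adjusted p = 0.16), the replicate block (adjusted p = 0.0546) and no filter on low counts (adjusted p = 0.0528). Between KD_NC and NC_NC SLC38A6 did not pass (0.38, adjusted p = 0.0605). It passed there with upper-quartile factors (adjusted p = 0.0362) and without KD_NC replicate 1 (adjusted p = 0.0175) or KD_OE replicate 1 (adjusted p = 0.0391). SLC38A6 shares exon sequence with the more abundant TRMT5 on the other strand.

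The uniporters let large neutral amino acids pass without an exchange partner. SLC43A1, named here after its values were seen because its mean of 3.76 CPM lies under the limit of 5 CPM for genes given in full, had the largest fold changes of the 29 tested genes in both comparisons of KD_OE. It measured 8.64, 9.80 and 10.3 CPM in the libraries labelled KD_OE, 0.524, 0.597 and 0.644 CPM in those labelled KD_NC and 1.15, 0.884 and 1.35 CPM in those labelled NC_NC. Behind these stood 140, 166 and 168 counts in libraries labelled KD_OE, 9, 12 and 11 in libraries labelled KD_NC and 17, 15 and 22 in libraries labelled NC_NC, and the groups did not overlap. SLC43A1 was higher in KD_OE than in KD_NC (log2 fold change 4.01 ± 0.242 SE, edgeR adjusted p = 2.03e-10) and than in NC_NC (3.08 ± 0.223, adjusted p = 1.39e-09). Its lower level in KD_NC than in NC_NC (-0.93 ± 0.305, adjusted p = 0.024) was lost in 7 of the 15 alternatives, among them without KD_NC replicate 1 (adjusted p = 0.0593), KD_NC replicate 2 (adjusted p = 0.067), NC_NC replicate 1 (adjusted p = 0.0566) and NC_NC replicate 3 (adjusted p = 0.111).

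Its relative SLC43A2 averaged 15.8 ± 1.14 CPM in the libraries labelled KD_OE, 15.1 ± 0.546 CPM in those labelled KD_NC and 18.8 ± 0.762 CPM in those labelled NC_NC (SD, n = 3 each). It was lower in KD_NC than in NC_NC (log2 fold change -0.32 ± 0.115 SE, edgeR adjusted p = 0.0392), a call lost in 13 of the 15 alternatives, among them DESeq2 (adjusted p = 0.0579) and the correction for GC content and length (-0.10, adjusted p = 0.539). Leaving out any of KD_NC replicates 1 and 2, KD_OE replicates 1 and 2 or the 3 libraries labelled NC_NC also ended that call (adjusted p between 0.0562 and 0.135). SLC16A10, which carries aromatic amino acids, had 63 counts in all and was not tested.

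**Figure D4:**
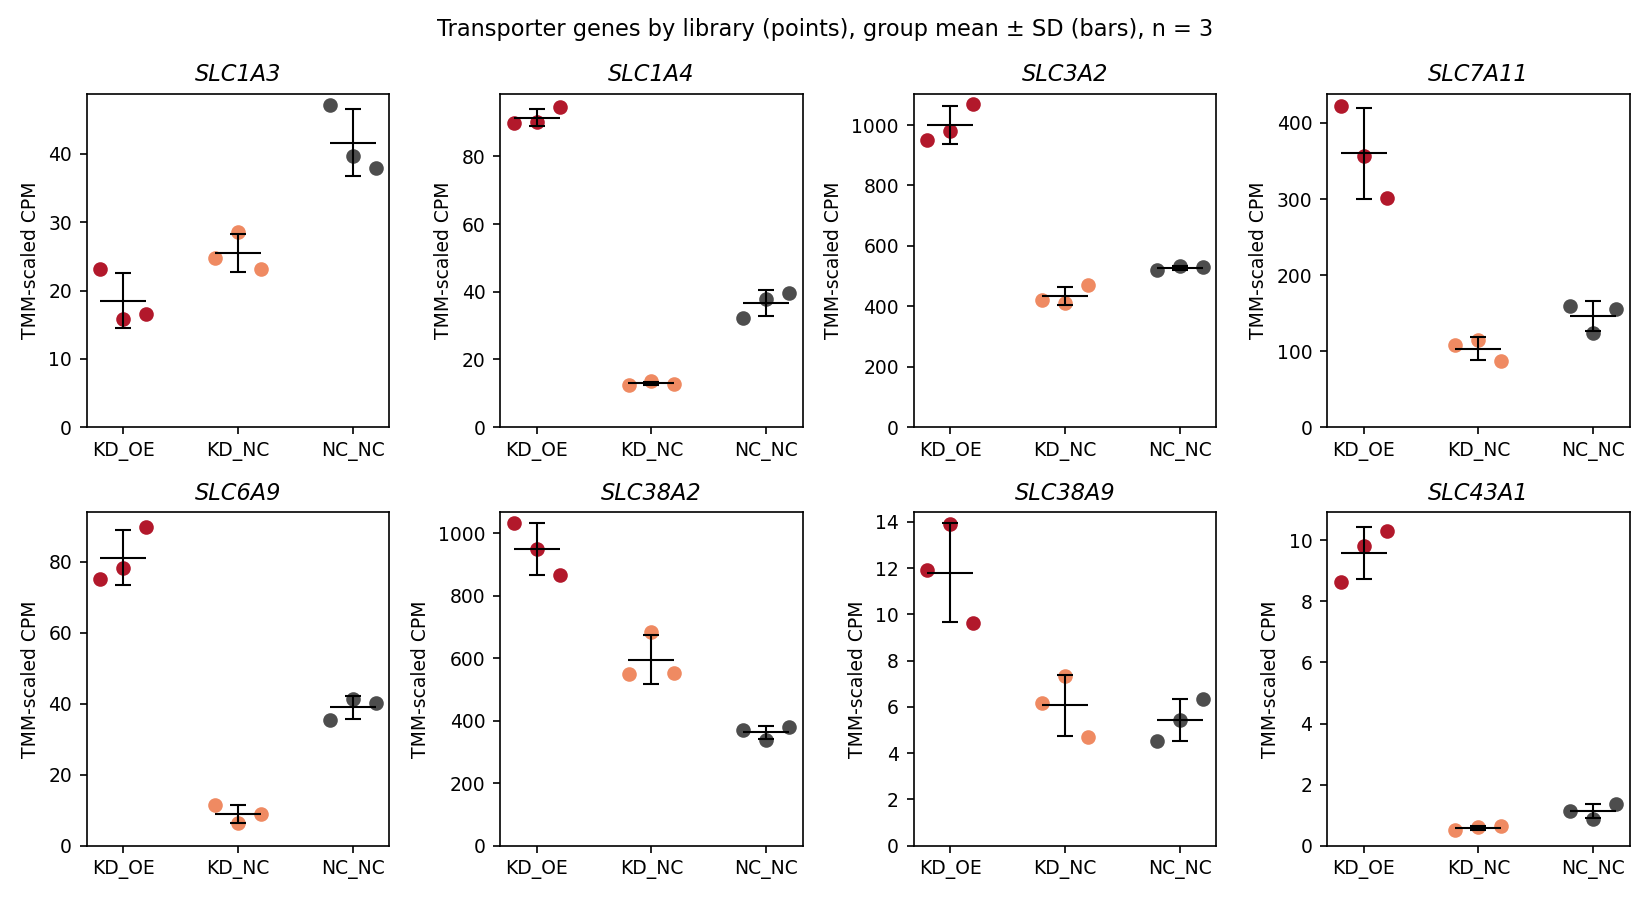
TMM-scaled CPM (y, from 0) of the 7 genes given in full by rule and of SLC43A1, 1 panel per gene, with 1 point per library, the group mean as a line and the SD as bars (n = 3). KD_OE lies above KD_NC and NC_NC in every panel except that of SLC1A3, and KD_NC lies above NC_NC without overlap in that of SLC38A2 alone.

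Of the 7 lysosomal carriers, 3 were higher and 1 lower between KD_OE and KD_NC, 5 higher and 1 lower between KD_OE and NC_NC, and 1 higher and 2 lower between KD_NC and NC_NC. Over all tested genes 23.7% were higher and 25.6% lower in the first comparison, 27.9% and 28.4% in the second and 16.0% and 18.5% in the third, where the count of carriers is near that share. SLC38A9, the arginine-sensing carrier that binds the Rag and Ragulator proteins, measured 11.9, 13.9 and 9.61 CPM in the libraries labelled KD_OE, 6.17, 7.32 and 4.69 CPM in those labelled KD_NC and 4.53, 5.42 and 6.34 CPM in those labelled NC_NC. KD_OE stood above both other groups, which overlapped. SLC38A9 was higher in KD_OE than in KD_NC (log2 fold change 0.96 ± 0.185 SE, edgeR adjusted p = 0.000288) and than in NC_NC (1.12 ± 0.190, adjusted p = 5.43e-05). They were 0.72 and 0.59 once corrected for GC content and length, both still called.

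CTNS, cystinosin, which exports cystine from the lysosome, measured 29.9, 29.5 and 31.4 CPM in the libraries labelled KD_OE, 15.1, 17.4 and 16.4 CPM in those labelled KD_NC and 18.8, 19.3 and 19.4 CPM in those labelled NC_NC. The groups did not overlap. CTNS was higher in KD_OE than in KD_NC (log2 fold change 0.89 ± 0.106 SE, edgeR adjusted p = 1.43e-06) and than in NC_NC (0.66 ± 0.106, adjusted p = 3.04e-05), and did not pass between KD_NC and NC_NC (-0.23, adjusted p = 0.103). Its exons share 88 bases with the less abundant AC027796.4 on the other strand, which had 8.38% of its counts. SLC15A4, which exports histidine and small peptides and supports signalling by endosomal Toll-like receptors in immune cells, ran in another order. It measured 42.3, 40.2 and 42.6 CPM in the libraries labelled KD_OE, 45.2, 48.3 and 57.8 CPM in those labelled KD_NC and 26.4, 25.6 and 29.5 CPM in those labelled NC_NC, with no overlap and KD_NC on top. SLC15A4 was higher than NC_NC in KD_OE (0.62 ± 0.109, edgeR adjusted p = 8.39e-05) and in KD_NC (0.89 ± 0.109, adjusted p = 5.17e-06). Its lower level in KD_OE than in KD_NC (-0.27 ± 0.106, adjusted p = 0.0396) was lost in 7 of the 15 alternatives, among them without KD_NC replicate 3 (adjusted p = 0.16) or any 1 KD_OE library (adjusted p between 0.056 and 0.129).

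SLC38A7, which exports glutamine and asparagine from the lysosome, averaged 43.5 ± 3.79 CPM in the libraries labelled KD_OE, 36.0 ± 4.29 CPM in those labelled KD_NC and 53.9 ± 4.09 CPM in those labelled NC_NC (SD, n = 3 each). It was lower in KD_NC than in NC_NC (log2 fold change -0.58 ± 0.109 SE, edgeR adjusted p = 0.000402) and in KD_OE than in NC_NC (-0.31 ± 0.108, adjusted p = 0.0203), the second lost, among other alternatives, without KD_OE replicate 1 (adjusted p = 0.11) or NC_NC replicate 3 (adjusted p = 0.103) and with the correction for GC content and length (-0.16, adjusted p = 0.116). Its higher level in KD_OE than in KD_NC (0.27, adjusted p = 0.0447) was lost in 11 of 15 alternatives, DESeq2 included (adjusted p = 0.0507). SLC36A1, a proton-coupled carrier of small neutral amino acids, averaged 17.6 ± 2.11 CPM in libraries labelled KD_OE, 14.9 ± 2.34 CPM in libraries labelled KD_NC and 20.4 ± 0.238 CPM in libraries labelled NC_NC. It was lower in KD_NC than in NC_NC (-0.45 ± 0.132, adjusted p = 0.0124), and not without KD_NC replicate 3 (adjusted p = 0.0547).

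SLC66A1, which exports lysine and arginine, averaged 13.8 ± 2.45 CPM in the libraries labelled KD_OE, 12.7 ± 0.991 CPM in those labelled KD_NC and 9.78 ± 1.16 CPM in those labelled NC_NC (SD, n = 3 each). SLC66A1 was higher in KD_OE than in NC_NC (log2 fold change 0.49 ± 0.150 SE, edgeR adjusted p = 0.00877), a call lost without KD_OE replicate 3 (adjusted p = 0.0801) or NC_NC replicate 1 (adjusted p = 0.0615). Between KD_NC and NC_NC its libraries did not overlap, but it did not pass (0.37, adjusted p = 0.063). The correction for GC content and length gave 0.62 there (adjusted p = 0.000539). SLC66A1 also passed there with upper-quartile factors (adjusted p = 0.0408) and in a fit to those groups alone (adjusted p = 0.0476). The same held without KD_NC replicate 2 (adjusted p = 0.0359) or KD_OE replicate 1 (adjusted p = 0.0461). SLC36A4, a carrier of proline and tryptophan, averaged 19.3 ± 2.92 CPM in libraries labelled KD_OE, 17.6 ± 1.99 CPM in libraries labelled KD_NC and 15.2 ± 1.41 CPM in libraries labelled NC_NC. Its call in KD_OE against NC_NC (0.34 ± 0.137, adjusted p = 0.0391) was lost without KD_OE replicate 1 or 2 or any 1 NC_NC library (adjusted p between 0.0571 and 0.18), and turned with the correction for GC content and length (-0.25, adjusted p = 0.048).

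The gene groups around the transporters were counted in the same fits, with the same shares of all tested genes as background: 23.7% higher and 25.6% lower between KD_OE and KD_NC, 27.9% and 28.4% between KD_OE and NC_NC, and 16.0% and 18.5% between KD_NC and NC_NC. Of the 14 genes listed as regulators and markers of the amino acid response, 13 were higher and 1 lower between KD_OE and KD_NC. Their median log2 fold change was 1.68 (0.01 over all tested genes). Between KD_OE and NC_NC 11 were higher and 1 lower (median 0.99), and between KD_NC and NC_NC 3 were higher and 9 lower (median -0.46). DDIT3, the stress transcription factor CHOP, averaged 73.2 ± 5.13 CPM in the libraries labelled KD_OE, 10.8 ± 2.00 CPM in those labelled KD_NC and 5.60 ± 0.417 CPM in those labelled NC_NC (SD, n = 3 each). Of the 1307 exonic bases of DDIT3, 355 lie in exons of MARS and 58 in exons of MBD6, both on the other strand and with more counts than DDIT3 (35728 and 10217, against 4476 over the 9 libraries), so its level is uncertain. TRIB3, a pseudokinase induced by ATF4, averaged 290 ± 11.6 CPM in libraries labelled KD_OE, 80.7 ± 5.87 CPM in libraries labelled KD_NC and 99.2 ± 7.55 CPM in libraries labelled NC_NC. Both were higher in KD_OE than in KD_NC (log2 fold change 2.76 ± 0.126 SE for DDIT3, edgeR adjusted p = 6.64e-12, and 1.85 ± 0.091 for TRIB3, adjusted p = 1.41e-11). The lower gene was EIF2AK4, the kinase that senses uncharged transfer RNA (-0.29 ± 0.087, adjusted p = 0.00951). Among the higher genes was EIF2AK3, the kinase that senses stress of the endoplasmic reticulum (0.67 ± 0.116, adjusted p = 8.82e-05). ATF4 itself was also higher in KD_OE than in KD_NC (0.61 ± 0.096, adjusted p = 3.55e-05). Its level was lower in KD_NC than in NC_NC (-0.48 ± 0.096, adjusted p = 0.000772) and did not pass between KD_OE and NC_NC (0.13, adjusted p = 0.26). The list includes sensors of both amino acid shortage and stress of the endoplasmic reticulum, and the cause of these differences was not tested.

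Among 25 tested genes of lysosomal amino acid sensing to mTORC1, 6 were higher and 6 lower between KD_OE and KD_NC (median log2 fold change 0.03), close to the shares of all tested genes (23.7% and 25.6%). SESN2, a leucine sensor that is also an ATF4 target, averaged 97.7 ± 7.01 CPM in the libraries labelled KD_OE, 27.3 ± 3.07 CPM in those labelled KD_NC and 58.4 ± 0.845 CPM in those labelled NC_NC (SD, n = 3 each). It was higher in KD_OE than in KD_NC (1.84 ± 0.101 SE, edgeR adjusted p = 6.37e-11) and lower in KD_NC than in NC_NC (-1.10 ± 0.101, adjusted p = 1.63e-07). FLCN, which acts on the Rag GTPases, was higher in KD_OE than in KD_NC (1.04 ± 0.109, adjusted p = 3.06e-07). LAMTOR5 of the Ragulator (-0.73 ± 0.109, adjusted p = 1.92e-05) and SEH1L of the GATOR complex (-0.48 ± 0.091, adjusted p = 0.000229) were lower. Between KD_OE and NC_NC 6 were higher and 8 lower (median -0.18), and between KD_NC and NC_NC 3 were higher and 5 lower (median -0.17), also near the background of 27.9% and 28.4% and of 16.0% and 18.5%.

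Of 10 tested genes listed under glutathione synthesis and the gamma-glutamyl cycle, 5 were higher and 2 lower between KD_OE and KD_NC (median log2 fold change 0.57). OPLAH, the 5-oxoprolinase, was higher (1.90 ± 0.140 SE, edgeR adjusted p = 2.82e-09), as was CBS, which makes cystathionine (1.36 ± 0.162, adjusted p = 1.46e-06). GGCT (-0.88 ± 0.122, adjusted p = 8.39e-06) and CHAC2 (-0.98 ± 0.176, adjusted p = 0.000131), which both release 5-oxoproline, were lower. Against NC_NC, KD_OE had 3 higher and 2 lower (median -0.02), near the background of 27.9% and 28.4%, and between KD_NC and NC_NC 5 were lower and 0 higher (median -0.35).

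Of 11 tested mitochondrial amino acid carriers, 0 were higher and 7 lower between KD_OE and KD_NC (median log2 fold change -0.50). The serine carrier SFXN1 averaged 94.9 ± 0.563 CPM in the libraries labelled KD_OE, 179 ± 21.4 CPM in those labelled KD_NC and 139 ± 2.46 CPM in those labelled NC_NC (SD, n = 3 each). It was lower in KD_OE than in KD_NC (-0.92 ± 0.092 SE, edgeR adjusted p = 1.73e-07), as was the ornithine carrier SLC25A15 (-1.15 ± 0.121, adjusted p = 3.25e-07). Against NC_NC, KD_OE had 1 higher and 8 lower (median -0.55), and between KD_NC and NC_NC 3 were higher and 2 lower (median -0.01).

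Of 27 further transporter genes of the same families, only 6 had enough counts to be tested. Between KD_OE and KD_NC 2 were higher, SLC15A3 (log2 fold change 0.49 ± 0.160 SE, edgeR adjusted p = 0.015) and SLC66A3 (0.52 ± 0.185, adjusted p = 0.0269), and 3 lower, among them SLC66A2 (-0.74 ± 0.149, adjusted p = 0.000405) and SLC6A17 (-1.18 ± 0.286, adjusted p = 0.00205). Against NC_NC, KD_OE had 1 higher and 2 lower, and between KD_NC and NC_NC 1 was higher and 1 lower.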

How the data were processed

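The authors deposited 1 table of raw read counts per gene for 58735 genes in 9 libraries of FaDu cells, with a gene length for each gene. The submitters' processing notes list featureCounts 1.5.0-p3, StringTie 1.3.3b, HISAT2 2.0.5 and the build hg19, with no roles. All 58735 gene identifiers carried the coordinates of GENCODE 29 on GRCh38 in the deposited table, so positions are given on GRCh38. Per the labels' protocols, TRIzol was used for RNA and a NEBNext Ultra kit, which does not mark strand, for the libraries. How reads of overlapping genes or of several matching places were counted is not stated. Some exon overlaps of members with neighbouring genes are not reported here.

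The deposited counts were tested with edgeR 4.0.16 under R 4.3.3: filterByExpr by group (minimum 10 counts), trimmed mean of M values (TMM) factors, and a robust quasi-likelihood fit to all 9 libraries with 1 term per group (6 residual degrees of freedom). P-values from the quasi-likelihood F test were adjusted (Benjamini-Hochberg) over the 16812 genes tested, and a gene was called at an adjusted p under 0.05. SE was computed as the size of the log2 fold change over the root of F. TMM-scaled CPM give the levels of a gene, and levels were compared between genes as RPKM by the length in the table. The edgeR fit was also run on simulated counts with far fewer changed genes than these comparisons call, so that check does not cover this setting. At 3 counts a library has 0.149 to 0.203 CPM, which covers counting error only. P-values measure the spread between these cultures of 1 line. The mean chi-square between replicates was 3.01 to 7.52 within KD_OE, 20.9 to 21.5 within KD_NC and 2.69 to 5.04 within NC_NC, so the libraries labelled KD_NC were the least alike and none was a duplicate. The labels name no batch.

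Alternatives were DESeq2 1.42.0, upper-quartile factors, no filter, a fit to the compared groups alone, a replicate block, a correction for GC content and length (16802 genes), and leaving out each library. A gene is given in full when called in at least 1 comparison with an absolute log2 fold change of at least 1 and a mean of at least 5 CPM, which held for 7 genes. From each further list, up to 2 genes of each direction with the lowest adjusted p between KD_OE and KD_NC were named. EIF2AK3 and ATF4 were named in addition, outside this rule. The members and lists were chosen with earlier results of these data known. Promoter sequences are from RefSeq (GRCh38.p14). Protein sequences were not used here.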

Additional observations from a re-analysis of the deposited data

How the results depend on the processing

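Of the counts of members and of all genes called, few moved by more than 1.5 times. The number of transporter genes higher between KD_NC and NC_NC was 2, and became 4 with upper-quartile factors and 5 with the correction for GC content and length. Leaving out 1 library at a time gave 2 to 4 higher and 11 to 14 lower genes there, 14 to 17 higher and 1 to 3 lower between KD_OE and KD_NC, and 13 to 17 higher and 3 to 5 lower between KD_OE and NC_NC. Over all genes these left 4288 to 6427 calls between KD_NC and NC_NC, 7071 to 8478 between KD_OE and KD_NC and 8317 to 9950 between KD_OE and NC_NC. Same-numbered libraries did not pair (correlations of their deviations from the group means between -0.111 and 0.063), and the replicate block gave 15 higher and 3 lower members between KD_OE and KD_NC, 15 and 4 between KD_OE and NC_NC, and 2 and 13 between KD_NC and NC_NC, with 7912, 9149 and 5376 calls over all genes. Upper-quartile factors moved the median log2 fold change of all genes between KD_OE and NC_NC to 0.126, against 0.023.

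Of the members' own fold changes under an alternative, 1193 kept their direction and their side of the threshold, 71 lost the call, 22 gained one and 19 changed sign. Only 2 of the values that changed sign passed, both between KD_OE and NC_NC with the correction for GC content and length: 0.23 for SLC6A8 (adjusted p = 0.0185) and -0.25 for SLC36A4 (adjusted p = 0.048). That correction also gave 0.03 for SLC7A8 and -0.14 for SLC7A2 there, -0.09 for SLC43A2 and -0.16 for SLC36A4 between KD_OE and KD_NC, and -0.03 for SLC6A15, -0.13 for SLC38A9 and -0.09 for SLC36A4 between KD_NC and NC_NC. Between KD_OE and KD_NC, SLC38A10 was 0.03 with upper-quartile factors and SLC38A6 was -0.03 without a filter. Leaving out 1 library at a time there, SLC38A10 ran from -0.15 to 0.03 (0.03 without KD_NC replicate 1), SLC38A6 from -0.16 (without KD_OE replicate 1) to 0.09 (and -0.11 without KD_NC replicate 1), and SLC66A1 from -0.03 (without KD_OE replicate 3) to 0.20. Between KD_OE and NC_NC, SLC6A8 was 0.07 with upper-quartile factors and ran from -0.10 to 0.04 when 1 library was left out (0.00 without KD_OE replicate 1, 0.04 without NC_NC replicate 2), and SLC7A8 ran from -0.34 to 0.05 (without NC_NC replicate 3). The cause was not tested. Over all genes the log2 fold change ran with GC content (Spearman rho -0.083 between KD_OE and KD_NC, -0.287 between KD_OE and NC_NC and -0.363 between KD_NC and NC_NC, across 16802 genes, which are not independent replicates). Depth limits SLC7A7, SLC7A2, SLC7A8 and the 5 untested genes most, and also SLC43A1 in the libraries labelled KD_NC and NC_NC.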
